A study of Mus musculus with 108 samples.

Results

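The daily rhythm of the kidney transcriptome was followed in the Bmal1-iKO mice of a study on the clock of the intestine. The 18 kidney libraries of this genotype, of 108 libraries in the series, were compared over 6 times of day, with 3 libraries at each time and no contrast between genotypes. The animals were male C57BL/J mice aged 8 to 12 weeks, kept on 12 h of light per day with free access to food and water. Times are zeitgeber times (ZT), counted in hours from lights on, so that ZT2, ZT6 and ZT10 lie in the light and ZT14, ZT18 and ZT22 in the dark. All 18 libraries carry the same genotype. The cells that lost Bmal1, the promoter that drove the deletion and the meaning of the letter i are not in the labels, and no part of the labels names a kidney deletion. They also do not say whether the 3 libraries of a time come from separate animals, so the p-values measure only the spread between these libraries.

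Most cells hold a circadian clock, a transcription loop in which BMAL1 (gene Arntl) and CLOCK or NPAS2 bind E-box sequences and switch on the Per and Cry genes, whose products then block them. A second loop runs through the REV-ERB receptors (Nr1d1, Nr1d2), which repress Arntl. Another runs through the PAR bZIP activators Dbp, Tef and Hlf and their counterpart, the repressor Nfil3, which compete for D-box sequences. In the kidney this clock is known to time sodium, water and acid-base handling, drug transport and blood pressure.

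The libraries differed in ways that their time labels do not explain, and these come before the results. Total counts ran from 15380579 to 22122971 reads per library. In 9 libraries, those above a mean of 4, the mean of 34 interferon-stimulated genes, on the log2 scale of CPM (counts scaled to an equal library size), lay at 4.38 to 6.65 against 1.94 to 2.95 in the other 9. The 9 high libraries are ZT6 libraries 1 and 2, ZT14 libraries 1 and 2, ZT18 libraries 1 and 2 and all 3 at ZT22. None is at ZT2 or ZT10, so at ZT2, ZT10 and ZT22 time and this difference cannot be told apart. Only ZT6, ZT14 and ZT18 hold libraries of both kinds. The means of some marker lists moved with it and those of others did not. Thick ascending limb markers (7 genes) were at 6.91 to 8.88 in the 9 high libraries against 7.85 to 8.27 in the other 9. B and plasma cell markers were at -1.34 to 0.601 against -0.779 to 0.791. Proximal tubule markers (15 genes) were at 7.54 to 9.86 against 9.94 to 10.6, macrophage markers (15 genes) at 2.54 to 4.19 against 1.26 to 2.20, stroma and smooth muscle (10 genes) at 4.02 to 5.14 against 2.91 to 3.85 and endothelial markers (10 genes) at 5.88 to 6.96 against 4.51 to 6.02, each as the range in the 9 high libraries against the other 9. Kidney-defining genes were present throughout: the lowest library had 515 CPM of Lrp2 (megalin, of the proximal tubule) and 393 CPM of Umod (uromodulin, of the thick ascending limb). Of 6 adrenal cortex markers, Cyp11b1 and Cyp11b2, which make the cortical hormones, had at most 0.239 CPM, and of the 6 only Star was above 1 CPM. ZT18 library 1 and ZT22 library 3, both labelled male and both among the 9, held 173 and 276 CPM of Xist and 0.0411 and 0 CPM of the Y-linked Ddx3y. Adipocyte markers were high in ZT22 library 3, ZT6 library 3 and ZT22 library 1, with 28.1, 14.2 and 5.29 CPM of Adipoq (adiponectin). ZT14 library 3 held 32.01 CPM of Tnnt3, a skeletal muscle troponin, against at most 0.383 elsewhere. In bulk tissue, fewer cells of a type and less RNA per cell cannot be told apart. The part of these differences in the results below was not tested beyond the fits named there.

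**Figure D1:**
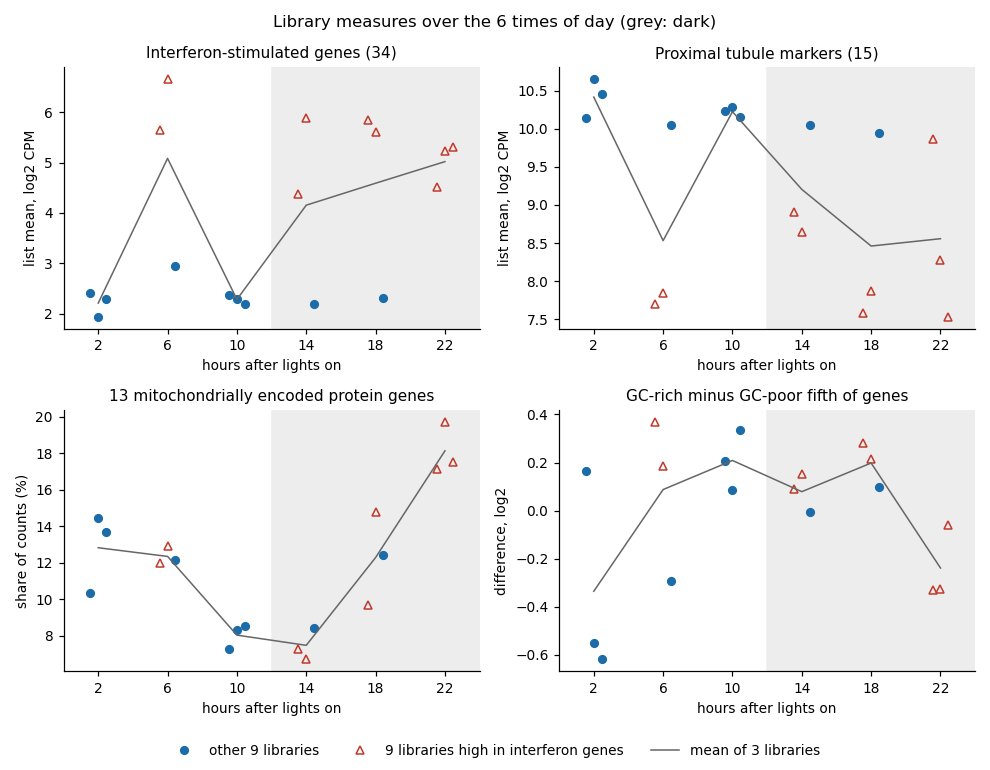
Library measures over the 6 times of day, with hours after lights on along each x axis: the mean log2 CPM of 34 interferon-stimulated genes and of 15 proximal tubule markers, the share of counts in 13 mitochondrially encoded protein genes (percent), and the log2 difference between the 20% of genes richest and the 20% poorest in GC. Triangles are the 9 libraries high in interferon genes, circles the other 9, lines the mean of 3 libraries; triangles are absent at ZT2 and ZT10, and the mitochondrial share is highest at ZT22, at 17.2 to 19.7%.

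Few genes followed a 24 h cosine. Of 17042 genes tested, 149 did (0.874%), by edgeR's quasi-likelihood test with Benjamini-Hochberg adjustment over all tested genes and an adjusted p under 0.05. Every adjusted p below comes from this test unless another is named. The amplitude is the fitted distance from the mean to the peak on the log2 scale, and the peak is given in hours after lights on, each with its standard error. Among the called genes the median amplitude was 0.52, from 0.28 to 2.36, and over all tested genes it was 0.26. A test that lets the 6 times take any shape called 3251 genes (19.1%), and all 149 genes were among them. With a yes or no term for the 9 libraries high in interferon genes, the cosine called 406 genes (2.38%), 145 of them among the 149, and the test of 6 times 677 (3.97%). In the test of 6 times this term is estimated only within ZT6, ZT14 and ZT18, which hold libraries of both kinds. It is taken to be the same at ZT2, ZT10 and ZT22. In the other 9 libraries alone, which hold no ZT22 library and 1 library each at ZT6, ZT14 and ZT18, the cosine called 13 genes (0.0765%) and the test of 6 times 51 (0.3%), and 1 of the 13 was among the 149. Leaving out single libraries moved the cosine count from 0 (without ZT10 library 1 or ZT22 library 2) to 674 (without ZT2 library 1). At 0 adjusted calls, 2263 and 2304 genes still had an unadjusted p under 0.05, against 2921 with all 18. None of the 149 was called in all 18 of these fits.

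**Figure D2:**
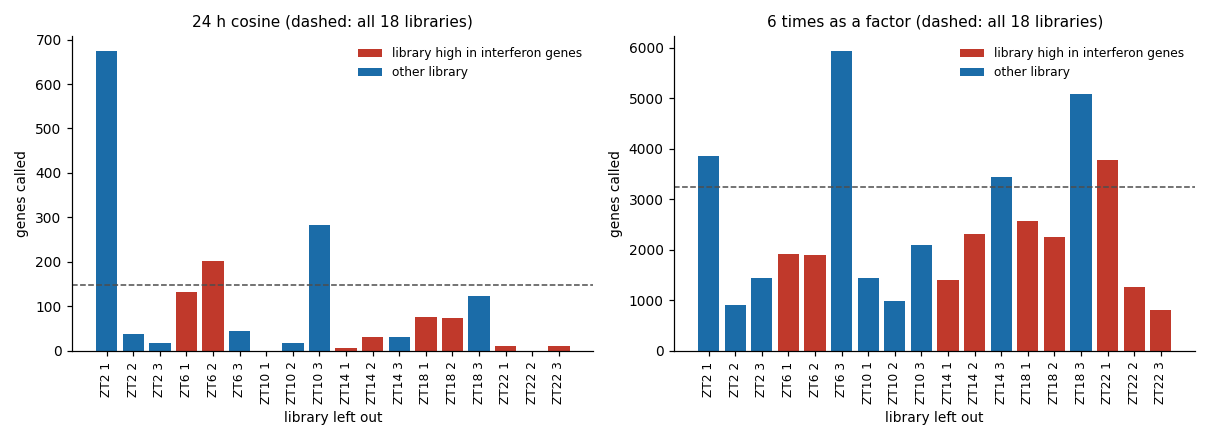
Number of genes called when each library (x axis) is left out in turn, for the 24 h cosine and for the test of 6 times, with the count from all 18 libraries as a dashed line. Red bars are libraries high in interferon genes; the cosine count runs from 0 to 674 and the count over 6 times from 808 (without ZT22 library 3) to 5937 (without ZT6 library 3).

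Most called genes peaked from 8 to 16 h or from 20 to 4 h, in the fit on all 18 libraries. Fitted peaks fell between 0 and 4 h for 27 genes (0.158% of those tested), between 4 and 8 h for 5 (0.0293%), between 8 and 12 h for 50 (0.293%), between 12 and 16 h for 17 (0.0998%), between 16 and 20 h for 3 (0.0176%) and between 20 and 24 h for 47 (0.276%). Together 67 genes peaked from 8 to 16 h and 74 from 20 to 4 h, 94.6% of the 149. The hours of light held 82 peaks (0.481% of the tested genes) and the dark hours 67 (0.393%), a light share of 55.0% (exact binomial 95% interval 46.7 to 63.2%, which treats genes as independent although they share libraries). With the peak taken as the sampling time of the highest mean, the light share of the same genes was 32.2%, so that which part of the day held more peaks depends on how a peak is defined. With the term for the 9 libraries, the bins from 0 to 24 h held 76, 4, 132, 66, 4 and 124 genes. With the library GC difference described next as a covariate they held 35, 8, 358, 52, 9 and 160, most of them from 8 to 12 h. In the 9 libraries not high in interferon genes, which include none at ZT22, they held 1, 1, 1, 10, 0 and 0.

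Genes of the windows had different base composition, given here as a description. The 67 genes that peaked from 8 to 16 h had a median GC content of 56.5% (quartiles 54.1 and 58.1%) and a median length of 5265 bases, and the 74 that peaked from 20 to 4 h had 41.6% (39.9 and 46.7%) and 3299 bases. Over all tested genes the medians were 49.6% and 3899 bases. The libraries differed in the same measure. The mean log2 level of the 20% of genes richest in GC, minus that of the 20% poorest and centred over libraries, was -0.55 and -0.62 in ZT2 libraries 2 and 3, and -0.33, -0.32 and -0.06 at ZT22. It was 0.37, 0.19 and -0.29 at ZT6, 0.21, 0.09 and 0.33 at ZT10, 0.09, 0.15 and -0.01 at ZT14 and 0.28, 0.22 and 0.10 at ZT18. The highest value was thus in ZT6 library 1, and the ZT18 libraries overlapped those of ZT10. ZT2 library 1, at 0.16, and ZT6 library 3 went against the other two of their times. With this difference as a covariate the cosine called 622 genes (3.65%), 89 of them among the 149, and the test of 6 times 5142 (30.2%). Whether the base composition of a library follows the time of day or its preparation was not tested.

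**Figure D3:**
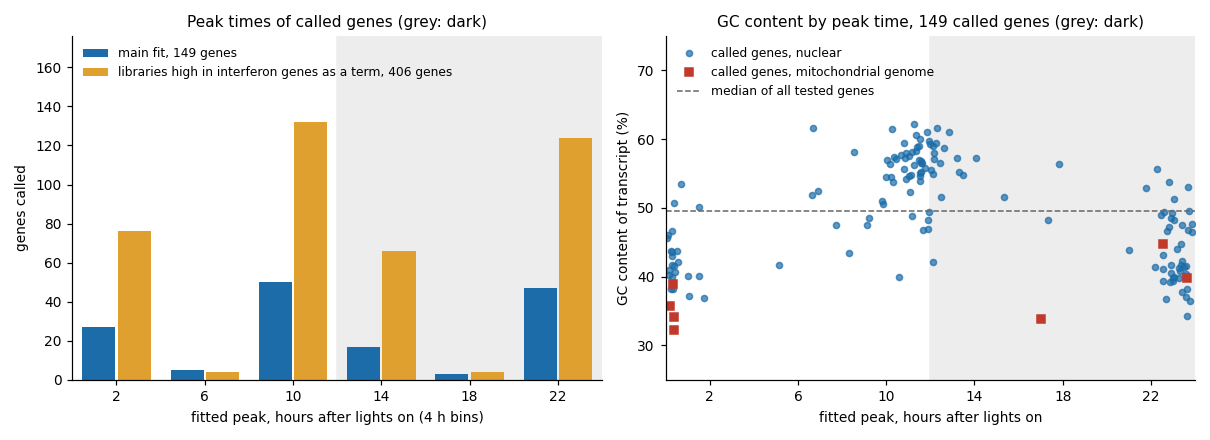
Left, number of called genes (y axis) by fitted peak in 4 h bins (x axis, hours after lights on), for the main fit (149 genes) and with a term for the 9 libraries high in interferon genes (406 genes). Right, GC content of each called gene's transcript (y axis, percent) against its fitted peak; genes that peaked from 8 to 16 h have a median of 56.5% and those from 20 to 4 h 41.6%, on either side of the median of all tested genes at 49.6% (dashed).

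Clock genes had fitted peaks spread over the light hours and into the dark, but most missed the threshold of the cosine. Of 28 clock genes tested in 5 groups, Dbp, Per3 and Arntl were called by the cosine (0.874% of all tested genes were), and 11 by the test of 6 times (19.1%). With the term for the 9 libraries, the cosine called the same 3 genes and the test of 6 times Per3, Dbp and the kinase gene Csnk1d. In the 14 clock genes with an unadjusted p under 0.05, fitted peaks ran from Nr1d1 at 2.69 ± 0.92 h, through Nr1d2, Ciart, Usp2, Dbp, Per3, Tef and Hlf between 5.59 and 7.67 h, Per2 at 8.74 ± 0.88 h, Bhlhe40, Cry2 and Csnk1d between 10.3 and 11.1 h, to Nfil3 at 15.9 ± 0.92 h and Arntl at 17.3 ± 0.73 h. Neighbours in this order differed by less than the sum of their standard errors, except Nr1d1 from Nr1d2 and Csnk1d from Nfil3. Over all 17042 tested genes 2921 had an unadjusted p under 0.05 by the cosine.

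The activators come first. Arntl, the gene named in the genotype, had 8.38, 4.21 and 4.20 CPM at ZT2, 2.06, 13.5 and 3.998 at ZT6, 5.32, 2.70 and 7.79 at ZT10, 37.8, 26.02 and 22.9 at ZT14, 18.4, 26.2 and 21.9 at ZT18 and 19.9, 22.8 and 12.5 at ZT22. It was high in the dark and low in the light: the lowest dark library, ZT22 library 3, lay just under ZT6 library 2 and above all other light libraries. Its amplitude was 1.28 ± 0.24 (adjusted p = 0.0431), but it was called in only 3 of 18 fits that left out 1 library (adjusted p 0.00823 to 0.122). The test of 6 times called it in all 18 (adjusted p = 0.0178 with all libraries). A count per gene does not separate an intact transcript from one that lacks a deleted exon, so these values do not check the deletion. Npas2, the partner of BMAL1 that can stand in for CLOCK, had 34.6, 7.27 and 6.19 CPM at ZT2, 2.55, 35.4 and 24.9 at ZT6, 2.81, 3.73 and 10.2 at ZT10, 16.2, 36.2 and 30.1 at ZT14, 33.2, 25.6 and 39.8 at ZT18 and 37.6, 16.8 and 37.5 at ZT22, with values far apart within ZT2, ZT6 and ZT22 (amplitude 0.73 ± 0.34, adjusted p = 0.427). Clock itself had an amplitude of 0.03 ± 0.11 (adjusted p = 0.980).

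Among the repressors, Per3 had 9.16, 19.5 and 24.3 CPM at ZT2, 38.99, 12.96 and 29.6 at ZT6, 33.8, 34.7 and 23.7 at ZT10, 9.504, 5.15 and 8.72 at ZT14, 6.66, 3.89 and 6.004 at ZT18 and 4.09, 7.12 and 8.21 at ZT22. It was high at ZT6 and ZT10 and low in the dark, and the ranges of the light and dark libraries touched only through ZT2 library 1 and ZT14 library 1. Its amplitude was 1.38 ± 0.17 with a peak at 6.92 ± 0.47 h (adjusted p = 0.0206), and it was called in 16 of 18 fits with 1 library left out, missing without ZT10 library 1 (0.0639) and without ZT22 library 2 (0.0647). Per2, which limits the activators together with the CRY proteins, had 16.7, 16.05 and 18.7 CPM at ZT2, 55.6, 25.9 and 31.3 at ZT6, 58.5, 43.6 and 35.3 at ZT10, 31.3, 12.6 and 26.5 at ZT14, 21.3, 12.8 and 8.60 at ZT18 and 11.2, 5.46 and 30.6 at ZT22. It peaked at 8.74 ± 0.88 h with an amplitude of 0.86 ± 0.20 (adjusted p = 0.0711), and ZT22 library 3 stood well above the other two of its time. In the 9 libraries that are not high in interferon genes, Per2 was called (adjusted p = 0.0148, peak 8.86 h). Cry2 had an amplitude of 0.62 ± 0.13 (adjusted p = 0.0655) and was called by the test of 6 times (adjusted p = 0.0318). Cry1 had 22.5, 3.14 and 4.20 CPM at ZT2, 20.7, 54.9 and 22.4 at ZT6, 23.2, 15.6 and 19.3 at ZT10, 41.6, 30.5 and 37.8 at ZT14, 42.8, 26.5 and 19.6 at ZT18 and 19.6, 6.72 and 51.1 at ZT22. ZT2 libraries 2 and 3 and ZT22 library 2 were the 3 lowest, and the other libraries of light and dark overlapped (adjusted p = 0.632). Per1, which responds to light, feeding and stress hormones besides the clock, ranged from 14.1 to 99.2 CPM with no call (adjusted p = 0.637). Ciart, a repressor of the BMAL1 complex, was low in level, with 1.03, 5.49 and 3.59 CPM at ZT2, 3.0, 0.354 and 2.61 at ZT6, 2.56, 5.57 and 2.07 at ZT10, 0.546, 0.165 and 0.598 at ZT14, 0.452, 0.658 and 0.649 at ZT18 and 0.189, 0.301 and 0.110 at ZT22. The test of 6 times called it (adjusted p = 0.0174), the cosine did not (0.0927).

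Of the REV-ERB receptors, Nr1d1 had the earlier fitted peak, and neither was called by the cosine with all 18 libraries. Nr1d1 had 46.1, 70.2 and 57 CPM at ZT2, 36.8, 9.16 and 31.3 at ZT6, 12.96, 18.9 and 10.7 at ZT10, 8.82, 6.18 and 8.13 at ZT14, 6.29, 14.5 and 18.01 at ZT18 and 16.7, 27.9 and 0.986 at ZT22. All 3 ZT2 libraries lay above every other library of the day, and the ZT14 libraries, at 8.82, 6.18 and 8.13 CPM, were low, though the lowest value of all was in ZT22 library 3. With all 18 libraries Nr1d1 missed the threshold (amplitude 1.22 ± 0.30, adjusted p = 0.0826), and in the 9 libraries not high in interferon genes it was called (amplitude 1.30, peak 1.44 h, adjusted p = 0.00216). Nr1d2, its paralogue, had 39.5, 149 and 145 CPM at ZT2, 103, 25.4 and 105 at ZT6, 107, 112 and 60.3 at ZT10, 22.5, 14.2 and 32.6 at ZT14, 10.97, 20.6 and 26.5 at ZT18 and 24.2, 50.7 and 8.87 at ZT22. It was high in the light and low in the dark, except that ZT2 library 1 and ZT6 library 2 lay below ZT22 library 2 (adjusted p = 0.0545 by the cosine and 0.0354 over 6 times). Rora and Rorb, receptors that activate Arntl through the same sites, were called by neither test. Their unadjusted p over 6 times were 0.258 and 0.290 in edgeR's quasi-likelihood test, and DESeq2 gave adjusted p = 0.299 and 0.422.

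Dbp had the largest amplitude of the clock genes, 2.06 ± 0.27, with a peak at 6.70 ± 0.50 h (adjusted p = 0.0206). Its values were 40.97, 55.3 and 41.9 CPM at ZT2, 81.4, 12.5 and 81.4 at ZT6, 59.6, 90.3 and 63.7 at ZT10, 8.50, 6.27 and 12.6 at ZT14, 7.15, 2.21 and 11.7 at ZT18 and 6.61, 3.51 and 6.74 at ZT22. The 8 light libraries other than ZT6 library 2 had at least 40.97 CPM and the 9 dark libraries at most 12.6. It was called in 16 of 18 fits with 1 library left out, missing without ZT10 library 1 (0.0830) and without ZT22 library 2 (0.0647), and again in the 9 libraries not high in interferon genes (0.0291). Tef, which binds the same D-box, had 178, 345 and 327 CPM at ZT2, 319, 137 and 266 at ZT6, 408, 386 and 308 at ZT10, 148, 89.1 and 228 at ZT14, 119.5, 129.9 and 152 at ZT18 and 138, 101.20 and 132 at ZT22. Of the 9 light libraries 7 lay above all dark ones, and ZT2 library 1 and ZT6 library 2 fell among them. Tef passed the test of 6 times (adjusted p = 0.0220) but not the cosine (0.0706). Nfil3, the D-box repressor, ran opposite, with 13.5, 5.85 and 4.66 CPM at ZT2, 5.06, 24.8 and 13.2 at ZT6, 18.8, 5.17 and 28.9 at ZT10, 30.6, 28.5 and 46.9 at ZT14, 32.3, 44.8 and 28.5 at ZT18 and 25.6, 16.1 and 26.2 at ZT22 (adjusted p = 0.0939). The ZT14 and ZT18 libraries were high, and ZT10 libraries 1 and 3 and ZT6 library 2 lay among the dark ones. Hlf (adjusted p = 0.284) and Bhlhe41 (0.513) gave no call, and Bhlhe40, an E-box repressor, was called over 6 times (adjusted p = 0.0265; cosine 0.0596).

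Among the kinases and ligases that set the life of the clock proteins, 3 of 7 were called over 6 times and none by the cosine. The casein kinase gene Csnk1d, whose product marks PER proteins, had 117, 98.8 and 89.01 CPM at ZT2, 102, 97.01 and 105 at ZT6, 120.3, 112 and 106 at ZT10, 131, 116 and 133 at ZT14, 98.9, 103 and 104 at ZT18 and 71.7, 69.2 and 61 at ZT22. It was 0.91 higher at ZT14 than at ZT22 on the log2 scale, with adjusted p = 0.0174, 0.0316 with the term and 0.850 in the 9 libraries not high in interferon genes, and was called in all 18 fits with 1 library left out. Its relative Csnk1e was highest at ZT6 and lowest at ZT2 (adjusted p = 0.0182; with the term 0.0597). Usp2, a deubiquitinase, was highest at ZT10 and lowest at ZT22 (0.0476; 0.538).

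Some libraries went against the others of their time in the clock genes, and 3 are given here. ZT6 library 2 had 13.5 CPM of Arntl, 12.5 of Dbp and 9.16 of Nr1d1, where the other two ZT6 libraries had 2.06 and 3.998, 81.4 and 81.4, and 36.8 and 31.3. The interferon mean was 6.65 in ZT6 library 2, the highest of all, and 5.64 in ZT6 library 1, and its part in the clock values was not tested. ZT2 library 1 had 22.5 CPM of Cry1 and 34.6 of Npas2, against 3.14 and 4.20, and 7.27 and 6.19, in the other two ZT2 libraries, and is not among the 9. ZT22 library 3, which is among the 9 and holds Xist, had 0.986 CPM of Nr1d1, 30.6 of Per2 and 51.1 of Cry1, where the other two ZT22 libraries had 16.7 and 27.9, 11.2 and 5.46, and 19.6 and 6.72. Without ZT6 library 2 the cosine called 203 genes, without ZT2 library 1 674 and without ZT22 library 3 11.

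**Figure D4:**
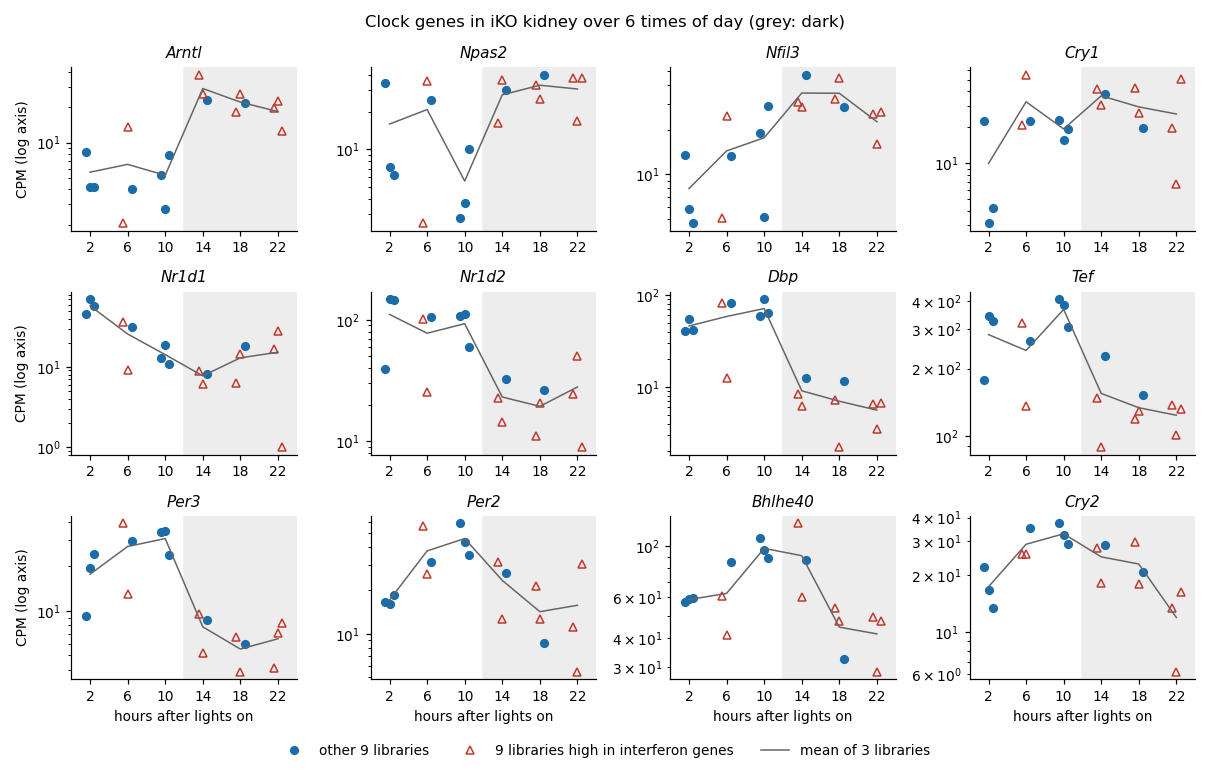
CPM (log axis) of 12 clock genes in each library against hours after lights on, with triangles for the 9 libraries high in interferon genes, circles for the other 9 and a line through the mean of 3 libraries. Arntl, Npas2 and Nfil3 are highest in the dark, Nr1d1 at ZT2, and Dbp, Tef, Per3 and Per2 fall after ZT10; ZT6 library 2, ZT2 library 1 and ZT22 library 3 lie away from the others of their time in several panels.

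Some promoters of these genes hold the sequences through which the loops are known to act. RefSeq promoters on GRCm38.p6, 250 bases before and 50 after the start site, were found for 22 of the 28 clock genes and searched on both strands for the E-box CACGTG, the D-box TTANGTAA and the REV-ERB and ROR element, AANTN followed directly by GGTCA. Of 32851 promoters, 7.15% held the E-box, 2.32% the D-box and 0.606% the REV-ERB and ROR element. The stretches around the matches are shown 5′ to 3′ on the gene's strand, with the motif in capitals, for the 6 genes with a match whose values are given above in the order E-box, D-box and REV-ERB and ROR element. Of the other matched genes, Bhlhe41 held an E-box and Rorb and Timeless a D-box, and Tef held an E-box at a second start site as well.
Ciart (chr3:95882251-95882360, - strand): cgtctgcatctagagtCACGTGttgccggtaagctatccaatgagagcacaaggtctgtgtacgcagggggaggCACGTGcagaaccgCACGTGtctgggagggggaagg
Tef (chr15:81802526-81802571, + strand): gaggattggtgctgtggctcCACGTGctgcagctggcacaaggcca
Cry1 (chr10:85185089-85185134, - strand): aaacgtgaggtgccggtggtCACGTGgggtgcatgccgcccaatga
Per1 (chr11:69098763-69098808, + strand): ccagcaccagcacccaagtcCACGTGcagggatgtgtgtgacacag
Per3 (chr4:151044800-151044886, - strand): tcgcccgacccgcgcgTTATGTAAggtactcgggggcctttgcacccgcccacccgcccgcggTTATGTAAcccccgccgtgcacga
Arntl (chr7:113207528-113207557, + strand): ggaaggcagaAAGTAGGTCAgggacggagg
Ciart holds 3 E-boxes, the first 116 bases before its start site, Tef 1 at 127 bases, Cry1 1 at 60 bases and Per1 1 at 166 bases before it. Per3 holds 2 D-boxes, 205 and 158 bases before its start site. The Arntl element begins 27 bases after the listed start site. Among the genes with an E-box here, Ciart and Tef had fitted peaks at 6.29 and 7.06 h, and Per1 and Cry1, which gave no call, at 10.1 and 14.1 h. A match is a string of letters, and a promoter without one, such as that of Dbp in this window, shows only that the letters are not in these 300 bases.

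Mitochondrially encoded genes that were called peaked around lights on. The 13 genes code for subunits of the respiratory chain and are transcribed from the mitochondrial genome as long precursors. Together they held 10.3, 14.5 and 13.7% of counts at ZT2, 12.0, 12.9 and 12.2% at ZT6 and 7.28, 8.30 and 8.51% at ZT10. The shares were 7.29, 6.70 and 8.42% at ZT14, 9.68, 14.8 and 12.4% at ZT18 and 17.2, 19.7 and 17.5% at ZT22. The ZT2 libraries thus overlapped those of ZT6 and ZT18, and ZT10 was about as low as ZT14. All ZT22 libraries, the highest, are high in interferon genes. Of the 13, the cosine called 4 (0.874% of all tested genes were) and the test of 6 times 7 (19.1%). Called or not, 10 had their lowest mean at ZT14, 2 at ZT6 and 1 at ZT10, and 9 had their highest at ZT22 and 4 at ZT2, where over all tested genes 13.4% were lowest at ZT14 and 23.6% highest at ZT22. Their median amplitude was 0.70, against 0.26 over all tested genes.

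Mt-Nd2 and the other named subunits moved together. The complex I subunit mt-Nd2 had 9335, 19830.2 and 18125 CPM at ZT2, 7341, 7638 and 10842 at ZT6, 6014, 7668 and 8162 at ZT10, 4883, 4178 and 7836 at ZT14, 5630.02, 9685 and 10351 at ZT18 and 19553, 18289.5 and 15608 at ZT22. Its ZT22 libraries and ZT2 libraries 2 and 3 were the 5 highest of the 18, and its amplitude was 0.80 ± 0.15 with a peak at 0.187 ± 0.70 h (adjusted p = 0.0339). mt-Nd6 had 2874, 7456 and 7445 CPM at ZT2, 2514, 2425 and 3519 at ZT6, 1786, 2281 and 2693 at ZT10, 1432, 1232 and 2617 at ZT14, 1852, 3509 and 3516 at ZT18 and 5101, 5895 and 4383 at ZT22 (amplitude 0.85 ± 0.16, adjusted p = 0.0357). The cytochrome c oxidase subunits mt-Co3 and mt-Co1 peaked at 0.340 ± 0.78 h and 23.6 ± 0.76 h (adjusted p = 0.0472 and 0.0499). In fits with 1 library left out, mt-Nd2 and mt-Nd6 were each called in 7 of 18, mt-Co3 in 4 and mt-Co1 in 2. With the term for the 9 libraries, 8 of the 13 were called by the cosine (2.38% of all tested genes). With the library GC difference as a covariate, 0 of the 13 were called by the cosine (3.65% of all tested genes were) and 2 by the test of 6 times (30.2%), the latter a smaller share than over all genes. The 4 named subunits have a GC content of 34.1 to 39.9%, and under that covariate their adjusted p ran from 0.0866 to 0.170. In the 9 libraries not high in interferon genes none of the 13 was called by either test.

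Nuclear genes of oxidative phosphorylation, which code for the other subunits, gave few calls. Of 31, none was called by the cosine and 3 by the test of 6 times (19.1% of all genes were). At an unadjusted p under 0.05 the cosine held 2 of the 31, and 2921 of all 17042 tested genes. Called or not, 16 were highest at ZT2 and 9 at ZT10, where 21.2% and 17.2% of all tested genes were. Lowest means fell at ZT22 for 13 and at ZT6 for 12, where 22.3% and 9.74% of all tested genes were lowest. Sdha, a subunit of complex II, had its highest mean at ZT10 and its lowest at ZT22, 1.29 apart on the log2 scale (adjusted p = 0.0223). Its ZT22 lowest and the ZT22 highest of mt-Co2 (1.97 apart from ZT14, adjusted p = 0.0174) lie at the same time. The proximal tubule list was at 9.86, 8.28 and 7.54 at ZT22. It was at 7.70, 7.84 and 10.05 at ZT6, 8.91, 8.65 and 10.05 at ZT14 and 7.58, 7.87 and 9.94 at ZT18. Every ZT2 and ZT10 library was at 10.14 or more. The part of this list in these genes was not tested. None of the 32 ribosomal protein genes of the list was called by either test. At an unadjusted p under 0.05 the test of 6 times held 0 of the 32, and DESeq2 called 1. Over all 17042 tested genes that test held 7172 at such a p, and DESeq2 called 7102. The list leaves out Rpl17, a ribosomal gene that both tests called (adjusted p = 0.0476 by the cosine and 0.0205 over 6 times).

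Mitochondrial tRNA genes were also among the largest amplitudes. mt-Ts2 had 3.36, 15.5 and 16.9 CPM at ZT2, 6.40, 3.70 and 3.55 at ZT6, 1.92, 1.67 and 2.18 at ZT10, 3.27, 2.02 and 2.04 at ZT14, 1.31, 4.07 and 3.35 at ZT18 and 8.06, 14.9 and 10.51 at ZT22 (amplitude 1.39 ± 0.21, adjusted p = 0.0206). As in mt-Nd2, the ZT22 libraries and ZT2 libraries 2 and 3 were the 5 highest. mt-Tp, which peaked at 22.6 ± 0.61 h, did as well (amplitude 1.02 ± 0.16). mt-Tn had 5.64, 6.99 and 5.12 CPM at ZT2, 4.12, 2.43 and 3.998 at ZT6, 6.65, 9.13 and 12.6 at ZT10, 15.1, 12.6 and 19.8 at ZT14, 11.6, 52.4 and 17.1 at ZT18 and 8.81, 17.8 and 8.10 at ZT22. It peaked at 17.01 ± 0.55 h instead (amplitude 1.30 ± 0.19, adjusted p = 0.0206), and ZT18 library 2 lay above all others. mt-Ts2 and mt-Tn were called in 16 of 18 fits with 1 library left out (without ZT10 library 1 they had 0.0841 and 0.0830 and without ZT22 library 2 0.0650 and 0.0647), and mt-Tp in 13, missing without ZT10 library 1, ZT14 library 1 or any ZT22 library (0.0515 to 0.0862). Since both strands of the mitochondrial genome are transcribed and the strand setting of the counts is not given, reads of a mitochondrial gene and of a neighbour on the opposite strand cannot be told apart. mt-Ts2, mt-Tn and mt-Tp are 59, 71 and 67 bases long and the reads 150 bases. A full-length read counted to one of them therefore also covers bases outside it. How far these values follow those of neighbouring genes was not tested.

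Among chaperones of the endoplasmic reticulum, those called were all highest at ZT14, just after lights off. These proteins fold secreted and membrane proteins and rise when that compartment is under load. Of 22 measured, 11 were called by the test of 6 times (19.1% of all tested genes were). All 11 had their highest mean at ZT14. Over all tested genes 377 of the 3251 called were highest there (2.21% of the tested genes). The cosine called none, with 10 at an unadjusted p under 0.05, and over 6 times DESeq2 called 15. Over all 17042 tested genes 2921 had such a p by the cosine, and DESeq2 called 7102 over 6 times. Creld2 had 29.9, 19.4 and 19.3 CPM at ZT2, 26.8, 28.3 and 19.3 at ZT6, 28.1, 22.7 and 26.9 at ZT10, 138, 68.5 and 46.5 at ZT14, 32.2, 22.3 and 19.7 at ZT18 and 28.7, 14.9 and 19.7 at ZT22. All 3 ZT14 libraries lay above the 15 others, and the means of ZT14 and ZT22 were 1.89 apart on the log2 scale (adjusted p = 0.0138). Hspa5 (BiP), the central chaperone of the compartment, had 415, 464 and 442 CPM at ZT2, 260.3, 420.4 and 448 at ZT6, 324, 415 and 297 at ZT10, 1494, 874 and 619 at ZT14, 386, 269 and 258 at ZT18 and 525, 289 and 387 at ZT22. The ZT14 libraries were again the 3 highest (1.64 above ZT18, adjusted p = 0.0174). Sdf2l1, a partner of BiP, had 82.3, 56.6 and 13.9 CPM at ZT14 and 10.04, 5.35 and 4.13 at ZT2, but 13.9 in ZT14 library 3 was below ZT18 libraries 1 and 2, ZT22 library 3 and ZT6 library 2 (adjusted p = 0.0174). Pdia4, Dnajb11, Manf and Hsp90b1, all folding factors or factors released under load, were 1.20, 1.157, 1.63 and 1.32 higher at ZT14 than at their lowest time (adjusted p = 0.0174, 0.0174, 0.0193 and 0.0214).

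Most of these calls were lost without ZT14 library 1, a fit in which fewer of all genes were called too. In each of the 3 genes with printed values ZT14 library 1 was the highest of the day, and ZT14 library 3, the library that is not high in interferon genes, the lowest of its time. With the term for the 9 libraries 7 of the 22 were called over 6 times (3.97% of all genes). Without ZT14 library 1, 1 of the 22 was called, with adjusted p = 0.0683 for Hspa5. Over all tested genes that fit called 1394, against 3251 with all 18 libraries. Creld2 was called in all 18 fits with 1 library left out (adjusted p up to 0.0414), and in the 9 libraries not high in interferon genes none of the 22 was.

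Heat shock and cold-inducible genes had their extremes at several times. Of 24 measured, 11 were called by the test of 6 times (19.1% of all tested genes were), and 5 with the term (3.97% of all were). Of the 11, 5 were highest at ZT14, 3 at ZT6, 2 at ZT18 and 1 at ZT10. Over all tested genes 377 of the 3251 called were highest at ZT14 (2.21% of the tested genes). Of the 11, 4 were lowest at ZT2, 3 at ZT22, 2 at ZT18, 1 at ZT6 and only Cirbp at ZT14. With 1 library left out the calls ran from 4 without ZT10 library 2 to 14 without ZT6 library 3. Cirbp, an RNA-binding protein that rises when body temperature falls, had 51.9, 39.01 and 51.4 CPM at ZT2, 45.04, 35.9 and 40.8 at ZT6, 42.5, 52.01 and 65.8 at ZT10, 20.2, 18.1 and 23.5 at ZT14, 54.3, 72.8 and 69.7 at ZT18 and 37.3, 46.2 and 49.8 at ZT22. All 3 ZT14 libraries lay below the other 15 (adjusted p = 0.0132), it was called in all 18 fits with 1 library left out and with the term for the 9 libraries (0.0101), and it was not called in the 9 libraries not high in interferon genes (0.370), where ZT14 has 1 library. Its means at ZT18 and ZT14 were 1.66 apart. Stip1, Ahsa1 and Fkbp4, co-chaperones of HSP90, were highest at ZT14 and lowest at ZT22 (adjusted p = 0.0441, 0.0467 and 0.0294), and lost their calls without ZT14 library 1 (0.161, 0.129 and 0.0953). In that fit 1394 of all tested genes were called, against 3251 with all 18 libraries. Hspa1a, an inducible HSP70, had 13.8, 5.99 and 9.63 CPM at ZT2, 66.2, 67.9 and 34.2 at ZT6, 12.6, 10.6 and 14.2 at ZT10, 28.2, 24.9 and 15.1 at ZT14, 69.4, 33.2 and 14.5 at ZT18 and 15.3, 22.1 and 37.8 at ZT22. ZT18 library 1 and ZT6 libraries 1 and 2 were the 3 highest, all of them high in interferon genes, and the ZT2 and ZT10 libraries the 6 lowest (adjusted p = 0.0203).

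**Figure D5:**
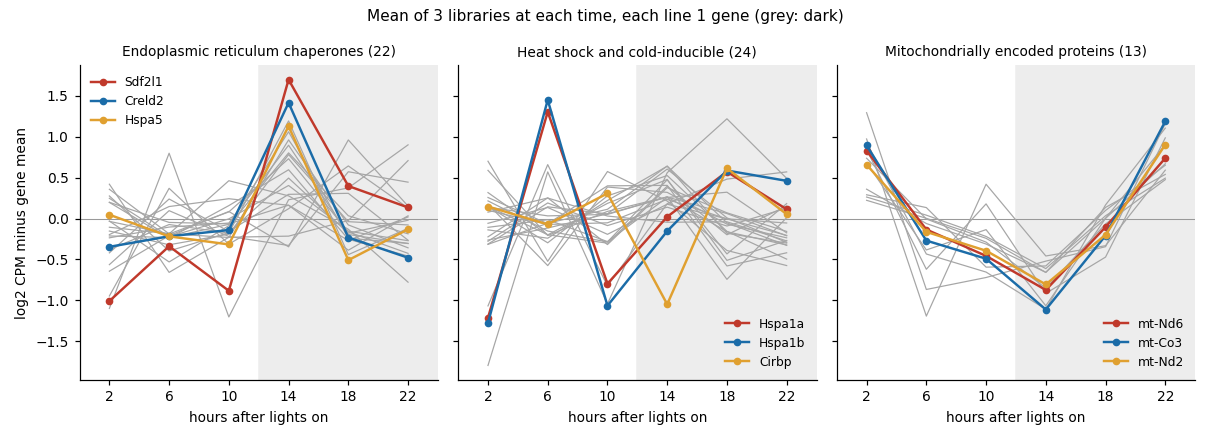
Mean log2 CPM of each gene at each time, relative to the gene's mean over the 6 times (y axis), against hours after lights on, for 22 endoplasmic reticulum chaperones, 24 heat shock and cold-inducible genes and 13 mitochondrially encoded genes. Each line is 1 gene and each point the mean of 3 libraries; Creld2, Sdf2l1 and Hspa5 rise at ZT14, where Cirbp and 10 of the 13 mitochondrial genes are lowest.

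Outside the clock and the mitochondrion, the genes with the largest amplitudes in each peak window are chosen by that size, and their values are a description. From 4 to 8 h, with Dbp and Per3, these were Coq10b, a coenzyme Q binding protein, the urate and sugar transporter Slc2a9, and Ctps, which makes CTP. Slc2a9, called among 31 sugar and amino acid transporters, had 26.6, 27.2 and 21.5 CPM at ZT2, 35.5, 29.8 and 17.4 at ZT6, 27.6, 27.6 and 25.4 at ZT10, 17.01, 18.4 and 17.6 at ZT14, 13.3, 16.8 and 18.5 at ZT18 and 14.2, 19.5 and 12.98 at ZT22. All light libraries but ZT6 library 3 lay above every dark library (amplitude 0.48 ± 0.09, peak 6.64 ± 0.72 h, adjusted p = 0.0407). It was called in 4 of 18 fits with 1 library left out. Coq10b peaked at 5.12 ± 0.74 h and Ctps at 7.73 ± 0.76 h (adjusted p = 0.0472 and 0.0487).

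From 8 to 12 h the leading genes included Unkl, Ankrd52, the glycosyltransferase B3gnt2 and Rtkn. Rtkn peaked at 10.79 ± 0.60 h with an amplitude of 0.71 ± 0.11 (adjusted p = 0.0231), was called in 13 of 18 fits with 1 library left out and kept its call with the GC covariate (0.0238). From 12 to 16 h they were Syne3, of the nuclear envelope, the phosphatase inhibitor Ppp1r1b (DARPP-32), Gse1, Rita1 and Gpr162. Ppp1r1b had 70.6, 25.9 and 43.1 CPM at ZT2, 76.96, 40.96 and 67.5 at ZT6, 125, 103 and 103 at ZT10, 131, 107 and 109 at ZT14, 71.1, 49.02 and 104 at ZT18 and 59.4, 47.97 and 62.04 at ZT22. The ZT10 and ZT14 libraries were 6 of the 7 highest, with ZT18 library 3 (amplitude 0.67 ± 0.13, peak 12.8 ± 0.72 h, adjusted p = 0.0397).

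From 16 to 20 h, besides Arntl and mt-Tn, the third gene was Ptgds, which makes prostaglandin D, at 17.8 ± 0.68 h (amplitude 0.70 ± 0.13, adjusted p = 0.0339). From 20 to 24 h the nuclear genes were Ly96, a partner of Toll-like receptor 4, Sycp3 and the ribosomal gene Rpl17 (adjusted p = 0.0493, 0.0402 and 0.0476), and from 0 to 4 h Spata1 (0.0339). Rpl17 has pseudogene copies, one of which was also called, so that reads could be split between them. Of the 149 called genes 9 are pseudogenes.

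Over the 6 times, 3251 genes differed. Highest means fell at ZT2 for 422 of them (2.48% of the tested genes), at ZT6 for 432 (2.53%), at ZT10 for 710 (4.17%), at ZT14 for 377 (2.21%), at ZT18 for 289 (1.7%) and at ZT22 for 1021 (5.99%). Lowest means fell at ZT2 for 1063 (6.24%), at ZT6 for 153 (0.898%), at ZT10 for 604 (3.54%), at ZT14 for 344 (2.02%), at ZT18 for 216 (1.27%) and at ZT22 for 871 (5.11%). The lowest means gathered at ZT2, where no library is high in interferon genes, and at ZT22, where all 3 are. Over all tested genes, called or not, 25.3% were lowest at ZT2 and 22.3% at ZT22. Without ZT2 library 2, ZT22 library 3 or ZT14 library 1 alone, 905, 808 and 1394 genes were called. Each list below therefore has its range of called genes over the 18 fits with 1 library left out. A call lost in such a fit is to be read beside these counts. Genes named in these lists beyond the rule for named genes were chosen after their values were seen.

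Renal transport genes gave few calls once the term for the 9 libraries was in the fit. Of 12 sodium transport genes, 4 were called over 6 times (19.1% of all tested genes were; 1 without ZT2 library 2 to 10 without ZT6 library 3), and with that term, where 3.97% of genes were, the 4 had adjusted p of 0.0603 or more. Slc12a3, the thiazide-sensitive cotransporter, was highest at ZT10 and lowest at ZT18 (adjusted p = 0.0361). Of 17 regulators of sodium transport 6 were called (1 without ZT2 library 2 to 9 without ZT6 library 3), among them Wnk1, a kinase upstream of that cotransporter (0.0366; with the term 0.0700). Of 25 genes of potassium, chloride and acid-base transport 6 were called (1 without ZT2 library 2 to 15 without ZT6 library 3) and 2 with the term, the potassium channels Kcnj1 and Kcnj10, both highest at ZT14 and lowest at ZT18 (adjusted p = 0.0273 and 0.0233; with the term 0.0465 and 0.0405; without ZT14 library 1 0.0933 and 0.0648).

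Water and urea genes that were called were mostly lowest at ZT2. Of 13 genes 7 were called over 6 times (19.1% of all tested genes were), with 2 without ZT2 library 2 to 10 without ZT18 library 3. Of the 7, 5 were lowest at ZT2. Over all tested genes 1063 of the 3251 called were lowest there (6.24% of the tested genes). With the term 2 were called (3.97% of all were), the urea transporter Slc14a1 (0.0281) and the adenylyl cyclase Adcy6 (0.0334), which makes cyclic AMP after vasopressin. Adcy6 had 79.5, 71.6 and 70.5 CPM at ZT2, 150.3, 207 and 123 at ZT6, 146, 123 and 87.7 at ZT10, 187, 167 and 132 at ZT14, 129, 119.7 and 94.8 at ZT18 and 66.6, 116 and 89.8 at ZT22. The ZT2 libraries and ZT22 library 1 were the 4 lowest, and the ZT14 libraries and ZT6 libraries 1 and 2 were among the 6 highest. With the term the cosine called it with a peak at 10.52 h (0.0183). Aqp2, the vasopressin-regulated water channel, was called without the term (0.0268) and not with it (0.142). Markers of the principal cell, in which it lies, were at 5.72 to 6.65 against 4.89 to 5.48 in the 9 libraries against the other 9.

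Among transporters of sugars and amino acids 9 of 31 were called over 6 times (19.1% of all tested genes were), with 2 without ZT2 library 2 to 18 without ZT18 library 3. Of the 9, 6 were lowest at ZT22. Over all tested genes 871 of the 3251 called were lowest there (5.11% of the tested genes). With the term (3.97% of all) the calls were Slc1a1 and the sodium-glucose cotransporter Slc5a1 (0.0396). Slc1a1, the glutamate and aspartate transporter, had 286, 319 and 311 CPM at ZT2, 154, 127 and 204 at ZT6, 152, 189 and 199.98 at ZT10, 147, 142 and 175 at ZT14, 144, 150.4 and 188 at ZT18 and 256, 179 and 203 at ZT22. Its 3 ZT2 libraries were the highest of all (adjusted p = 0.0206; with the term 0.0297), and the cosine with the term called it with a peak at 23.8 h (0.0209). Of 29 organic ion transporters 4 were called, a share of 13.8% that lies below that of all genes (0 without ZT22 library 3 to 14 without ZT6 library 3), 3 of them lowest at ZT22. With the term the calls were the drug efflux pump Abcb1a, highest at ZT14 (0.0179; with the term 0.0397), and Slc22a7 and Slc22a19, both lowest at ZT14 and not called without it (0.704 and 0.474; with the term 0.0170 and 0.0216). In the renin-angiotensin list, the angiotensin receptor Agtr1a missed the test of 6 times (0.0572) and was called by the cosine with the term, at a peak of 0.130 h (0.0399). Of 10 genes in that list 2 were called, Mas1, highest at ZT2 (0.0261), and Ace, highest at ZT10 (0.0273; range of called genes 0 without ZT2 library 2 to 8 without ZT6 library 3). Casr, the calcium-sensing receptor, was called over 6 times (0.0384), 2.31 higher at ZT14 than at ZT18, and with the term (0.0297), but not without ZT14 library 1 (0.0824). Casr and the tight junction gene Cldn2 (0.0484) were the 2 called of 20 genes for calcium, phosphate and vitamin D (0 without ZT2 library 2 to 12 without ZT6 library 3).

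In some metabolic lists many of the lowest means fell at ZT22, and in others they did not. Lowest means fell at ZT22 for 23 of 35 genes of fatty acid oxidation, 18 of 35 of amino acid breakdown and 12 of 28 of glycolysis and gluconeogenesis, counted over all tested members whether called or not (22.3% of all tested genes were lowest there). In other lists it was 4 of 24 genes of cholesterol synthesis (10 were lowest at ZT18), 6 of 24 of fatty acid synthesis (7 at ZT18) and 8 of 30 of conjugation and glutathione. For genes of NAD and pyrimidine it was 9 of 21. Of the first 3 lists 5, 6 and 10 genes were called over 6 times (19.1% of all tested genes were, a larger share than in the lists of fatty acid oxidation and amino acid breakdown), and 3, 1 and 2 with the term (3.97%). With 1 library left out the counts were 1 without ZT2 library 2 to 14 without ZT6 library 3, 1 without ZT2 library 2 to 16 without ZT6 library 3 and 1 without ZT2 library 2 to 17 without ZT6 library 3. The dehydrogenase Acadvl, of fatty acid oxidation, was highest at ZT10 (adjusted p = 0.0431; with the term 0.0297). Hk1, the first enzyme of glycolysis, had 106, 67.96 and 84.6 CPM at ZT2, 167, 152 and 133 at ZT6, 157, 154 and 132 at ZT10, 261, 224 and 137 at ZT14, 165, 156 and 142 at ZT18 and 123, 107 and 116 at ZT22. The ZT2 libraries were the 3 lowest and ZT14 libraries 1 and 2 the highest, while ZT14 library 3 lay in the middle (adjusted p = 0.0189), and the cosine called it with the term, with a peak at 12.2 h (0.00718). Of the 15 proximal tubule markers 8 were lowest at ZT22, called or not. Of the 15, 2 were called over 6 times and none by the cosine. At an unadjusted p under 0.05 the cosine held 0 of them, and 2921 of all 17042 tested genes. The part of this cell type in the metabolic genes was not tested. Of 24 genes of cholesterol synthesis and uptake 6 were called (2 without ZT2 library 2 to 15 without ZT6 library 3), with their extremes at several times. With the term 4 were, among them the enzymes Sqle, Hsd17b7 and Cyp51, highest at ZT2 and lowest at ZT18 (0.0272, 0.0488 and 0.0201, the last not called without the term, 0.208).

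Drug-metabolizing cytochromes had a median amplitude of 0.64, against 0.26 over all tested genes. Of 21 measured 7 were called over 6 times (19.1% of all tested genes were; 3 without ZT2 library 2 to 10 without ZT6 library 3) and 4 with the term (3.97% of all). Cyp2d12 had 217, 268 and 221 CPM at ZT2, 17.1, 29.6 and 41.3 at ZT6, 141, 80.9 and 82.3 at ZT10, 6.64, 9.98 and 24.8 at ZT14, 7.11, 19.3 and 57.6 at ZT18 and 68.6, 22 and 27.98 at ZT22. All 3 ZT2 libraries lay above the other 15 and the mean of ZT14 was the lowest, 4.30 below ZT2 on the log2 scale (adjusted p = 0.0164; with the term 0.0250). The call also held in the 9 libraries not high in interferon genes (0.0125) and in all 18 fits with 1 library left out. Por, which hands electrons to these enzymes, had 336, 352 and 298 CPM at ZT2, 225, 144 and 282 at ZT6, 478, 495 and 477 at ZT10, 195, 154 and 297 at ZT14, 130.2, 164 and 251 at ZT18 and 192, 117 and 118 at ZT22. Its ZT10 libraries were the 3 highest and it was called (0.0174), but not with the term (0.113). Cyp2d26 was highest at ZT14 and lowest at ZT10 (0.0174; 0.0203). The Cyp2d genes are close copies of each other, between which reads could be split. Of 10 genes known to be higher in male than in female kidney, whose list mean ran 2.87 to 9.20 against 8.92 to 9.91 in the 9 libraries against the others, none was called by either test. At an unadjusted p under 0.05 both tests held 0, and DESeq2 called 0. Over all 17042 tested genes the cosine held 2921 at such a p and the test of 6 times 7172, and DESeq2 called 7102 over 6 times.

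Called immediate early, interferon and matrix genes were mostly lowest at ZT2 or ZT10. Of 24 immediate early genes, which respond fast to growth factors and stress, 12 were called over 6 times (19.1% of all tested genes were). The count was 4 without ZT2 library 2 to 16 without ZT6 library 3. All 12 were lowest at ZT2, and 6 of them were highest at ZT18 and 5 at ZT6. Over all tested genes 1063 of the 3251 called were lowest at ZT2 (6.24% of the tested genes). With the term 4 were called: Gadd45b, Maff, Junb and Klf4 (adjusted p = 0.0334, 0.0334, 0.0376 and 0.0334). Of 34 interferon-stimulated genes 14 were called (0 without ZT2 library 2 to 33 without ZT6 library 3) and 2 with the term, which is drawn from their own mean, so that this count is a description. Of 20 collagen and matrix genes 14 were called (4 without ZT22 library 3 to 18 without ZT6 library 3), and 1 with the term (3.97% of all). Of the 14, 12 were highest at ZT22. Over all tested genes 1021 of the 3251 called were highest there (5.99% of the tested genes). Endothelial markers (8 of 10 called, all lowest at ZT2), stromal markers (8 of 10) and macrophage markers (6 of 15, all highest at ZT22) were called beside them, and with the term only the stromal Pdgfra of these (0.0445). With 1 library left out these 3 lists had 3 without ZT2 library 2 to 9 without ZT6 library 3, 3 without ZT2 library 2 to 9 without ZT6 library 3 and 1 without ZT2 library 2 to 11 without ZT6 library 3. The cell cycle list held no call among 30 genes by either test. It had 1 gene at an unadjusted p under 0.05 by the cosine, where 2921 of all 17042 tested genes were. Over 6 times 7 of the 30 were at such a p (7172 of all tested genes) and DESeq2 called 6 (7102 of all).

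In the 9 libraries not high in interferon genes, the 13 genes called by the cosine were not those of all 18. Dbp was called in both. Nr1d1 and Per2 came with it, and so did Ddit4, an inhibitor of mTOR signalling known to follow glucocorticoids, scaled over these 9 libraries at 12.6, 15 and 15.7 CPM at ZT2, 15.9 at ZT6, 39.7, 33.2 and 27.5 at ZT10, 46.6 at ZT14 and 29.99 at ZT18 (peak 13.99 h, adjusted p = 0.0189). With all 18 libraries Ddit4 had adjusted p = 0.367. Cntfr, a receptor for ciliary neurotrophic factor, and the lipid transporter Abca8a were low at ZT2 and higher from ZT10 (adjusted p = 0.0428 and 0.0473). Tnnt3, Mb, Myh2 and Lmod2, genes of skeletal muscle, were among the 13 with their reads nearly all in ZT14 library 3, where Tnnt3 had 29.7 CPM and in no other of the 9 more than 0.163. In that fit 3 of the 5 times hold 1 library each, so only at ZT2 and ZT10 does spread between libraries of a time enter. At ZT6, ZT14 and ZT18 only the distance of 1 library from the fitted curve enters.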

How the data were processed

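RNA of the 18 kidney libraries was extracted with Trizol, prepared with an NEBNext Ultra kit and sequenced on Illumina HiSeq X instruments, per the labels' protocols. The authors deposited raw read counts per gene, from which the 18 columns were read by name. The submitters' processing notes list the aligner HISAT2 (2.0.4), the counter featureCounts (1.5.0-p3), DESeq2 (1.16.1) and the builds GRCm38 and mm10, without their settings. The strand setting is not given in the sources used here. Gene starts in the table matched GENCODE M21 on GRCm38 for 2.88% of 52083 shared identifiers, so none of its coordinates is printed.

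Of 55416 genes, 17042 passed edgeR's filterByExpr over the 6 times and were scaled by TMM. CPM and log2 CPM (prior count 2) were computed from the deposited counts. The main test was edgeR 4.0.16's robust quasi-likelihood test (R 4.3.3) of both terms of a 24 h cosine, and the second that of time as a factor with 6 levels. P-values were adjusted by Benjamini-Hochberg over all genes tested, at 0.05. The common biological coefficient of variation was 0.402. Total counts were 15380579 to 22122971 reads per library, and no 2 libraries of a time agreed within sampling noise (lowest chi-square per degree of freedom 15.7). Both fits were tested on simulated counts.

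Named genes are the clock lists, the 5 called genes of largest amplitude in each 4 h bin of peak time whose log2 CPM averages 2 or more (predicted genes and pseudogenes passed over), and up to 4 called members of each function list by p. The members and lists were chosen with earlier results of these data known. Alternatives were DESeq2 1.42.0, its size factors, no filter, a fit on all 36 kidney libraries, the replicate number as a block, the interferon mean as a covariate, and 18 fits that each leave out 1 library. A term for the 9 libraries high in interferon genes, leaving those 9 or the 2 libraries with Xist out, and the library GC difference as a covariate were chosen after seeing the data. Some genes that the rule names are not reported here.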

Additional observations from a re-analysis of the deposited data

How the results depend on the processing

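With 3 libraries at a time, which calls pass depends strongly on the fit, and the cause was not tested unless named. The 24 h cosine called 149 genes in the main fit. It called 990 with DESeq2, 31 with no filter on low counts (more genes tested), 744 in the fit on all 36 kidney libraries, 744 with the interferon mean as a covariate, 406 with a term for the 9 libraries high in interferon genes, 13 without those 9 libraries, 6 without the 2 libraries with Xist (fewer libraries in both) and 622 with the library GC difference as a covariate. The genes shared with the 149 were 148, 29, 141, 149, 145, 1, 4 and 89 in that order. Over 6 times the count was 3251, which is also that of the cosine's alternative with time as a factor. It was 7102 with DESeq2, 7058 in the fit on all 36 libraries, 651 with the interferon mean, 677 with the term, 51 without the 9 libraries, 75 without the 2 libraries with Xist and 5142 with the GC covariate. DESeq2's size factors left both counts within 1.5 times. Leaving out 1 library moved the cosine count from 0 to 674 and the count over 6 times from 808 to 5937.

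The share of called genes that peaked in the light, 55.0%, was 32.2% when peaks were taken as the highest sampling time and 64.5% with the GC covariate. The clock and function lists hold 721 genes. Of these the cosine called 8 in the main fit (0.874% of all tested genes were called) and 19 with the term (2.38% of all). It called 17 of them with the GC covariate (3.65% of all). No direction reversed under the alternatives run. The numbers of the libraries do not pair them: libraries of the same number at different times had a mean correlation of 0.020 (45 pairs), against -0.007 for different numbers (90 pairs), and 5 of 18 correlated best with their own number. With the replicate number as a block, 83 genes were called by the cosine, 76 of them among the 149, and 3057 over 6 times.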
